A study of Oryza sativa Japonica Group with 17 samples.

Results

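Roots of rice plants that descended from the insertion line NC2373 but carried no insertion were compared with roots of wild type plants. The comparison took 6 of the 17 arrays of the study, 3 samples titled as NC2373 plants without an insertion, called NC2373 null here, and 3 titled wild type. Members were chosen by title alone, and all 57258 probe sets that are not Affymetrix controls were tested. OsGS1;1, the gene that the insertion disrupts, is intact in both groups, so the comparison gives the differences between the line and wild type that are present without the insertion.

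The study measured root transcripts of Oryza sativa Japonica, cultivar Nipponbare, on the Affymetrix rice array. Seedlings grew for 18 days in water culture with 1 mM ammonium as the nitrogen source. NC2373 null plants (n = 3) segregated from a heterozygote of the line, and wild type plants (n = 3) grew from wild type seed. NC2373 gs1;1 (n = 2) holds homozygotes of the same line, and gs1;2 (n = 3) is a homozygous mutant of OsGS1;2. ND8037 null (n = 3) and ND8037 gs1;1 (n = 3) come from another OsGS1;1 line. The samples are labelled biological replicates. Seed lot and line background come together in these groups and cannot be told apart, and the null plants stand for 1 line.

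An insertion line is made by plant regeneration and selection, and it can hold changes elsewhere in the genome besides the insertion that gives it its name. A null segregant is a plant of the same family that lost the insertion by segregation, so it shares the history of its homozygous relatives and, on average, much of their other variation. GS1, the glutamine synthetase of the cytosol, makes glutamine from glutamate and ammonium and so takes up the first step of assimilation in ammonium-fed roots.

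All levels below are log2 signals from RMA, so a difference of 1 is a 2-fold ratio. Differences are NC2373 null minus wild type, with the standard error (SE) and the Benjamini-Hochberg adjusted p of limma, fitted over all 17 arrays, and a probe set was called at an adjusted p under 0.05. The 11 arrays of NC2373 null, wild type, NC2373 gs1;1 and gs1;2 have 1 common signal distribution and the 6 ND8037 arrays another, so levels were set side by side among the 11. No detection calls were used, so a difference from a group at a low signal is given as measured and may be a lower bound. The filter at a mean of log2 5 in the closing section leaves out 11 of the 53 named probe sets with a call, among them OsADF9, OsADF6, OsCIPK05, PDX12, PCF8, OsDREB2D and LOC4330830. Each of the 11 arrays with the common distribution had a Pearson r of 0.994 to 0.997, across probe sets, with the mean of the other arrays of its group. The actin 3' minus 5' signal, a sign of RNA integrity, was 2.75 ± 0.21 (SD, n = 3) in NC2373 null and 2.75 ± 0.09 (SD, n = 3) in wild type. The poly-A spike controls averaged 6.63 ± 0.06 and 6.65 ± 0.10 in the same order. In bulk roots, fewer cells of a type and less RNA per cell cannot be told apart.

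The GS1 genes checked the labels first. OsGS1;1 (LOC4330649) stood at 12.50, 11.80 and 12.06 in the 3 NC2373 null samples and at 11.21, 11.85 and 11.43 in wild type. The 2 groups overlapped, and the difference of 0.62 (SE 0.211, adjusted p = 0.1988) was not called, while NC2373 gs1;1 stood at 8.75 ± 0.14 (SD, n = 2). OsGS1;2 (LOC4332108), the main GS1 gene of ammonium-fed roots, was at 12.78 ± 0.09 (SD, n = 3) in the null and 12.44 ± 0.17 (SD, n = 3) in wild type, a difference of 0.34 (SE 0.141, adjusted p = 0.3239) that was not called. The groups did not overlap, with 12.70 as the lowest null value and 12.63 as the highest in wild type. OsGS1;2 stood at 7.01 ± 0.18 (SD, n = 3) in gs1;2. OsGS1;3 (LOC4333896) was low in both groups, at 5.45 ± 0.19 in the null and 5.34 ± 0.04 in wild type (SD, n = 3 each, adjusted p = 0.8317). Each sample of the comparison thus had OsGS1;1 and OsGS1;2 far above the group labelled as the mutant of that gene.

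NC2373 null differed from wild type in 523 of 57258 probe sets, 0.913% of those tested. Of these, 245 (0.428%) were higher in the null and 278 (0.486%) were lower, and 203 (0.355%) differed by at least 2-fold. The 3 values of one group lay wholly outside the 3 of the other in all 245 called higher and 274 of the 278 called lower, against 7.17% and 8.26% of all probe sets (15.4% in either direction). The calls rest on the same 6 values, so this separation describes the called probe sets and carries no test. The median difference over all probe sets was -0.0033, and called differences had a median size of 0.88 and ran from -4.07 to 7.53. The number called rested on the fit and on single samples. It was 133 when the spread was estimated from the 11 arrays alone and 20 from the 6 arrays alone. Leaving out 1 sample gave 118 without wild type 627, 148 without NC2373 null 152, 353 without null 153, 506 without null 154, 742 without wild type 628 and 1036 without wild type 629. Of the 523, 88 (51 higher, 37 lower) were called in all 6 of these fits, and 119 were also called with the 11 arrays.

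**Figure D1:**
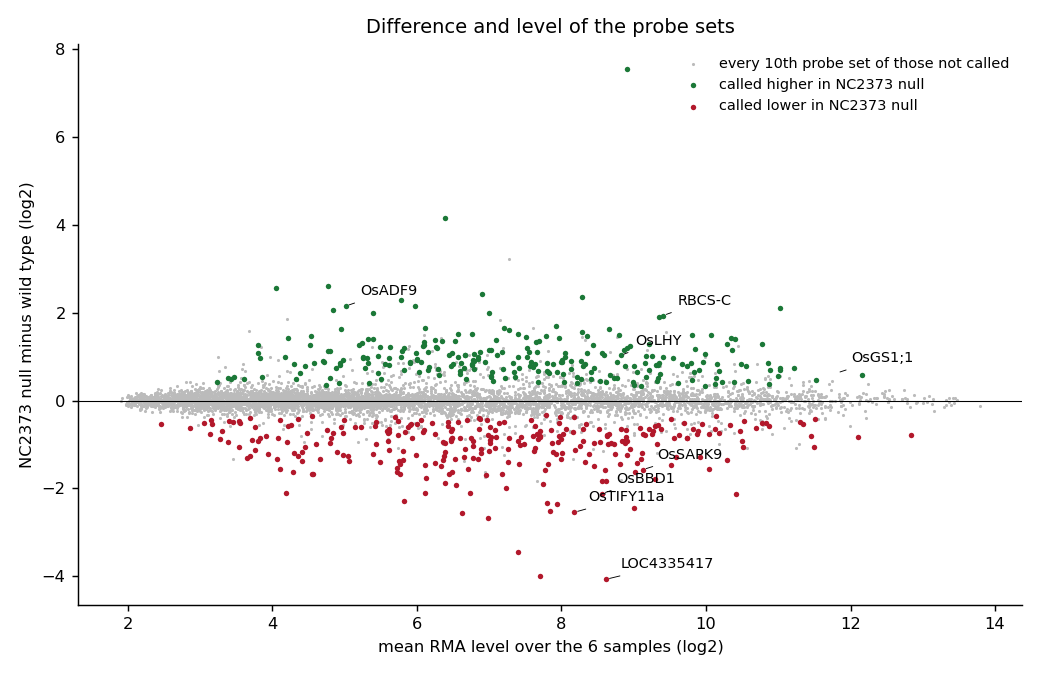
Difference between NC2373 null and wild type (log2, vertical axis) against the mean RMA level over the 6 samples (log2, horizontal axis). Green points are the 245 probe sets called higher, red points the 278 called lower, and grey points are a systematic subset of those not called; 8 genes are labelled, of which OsGS1;1 was not called.

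**Figure D2:**
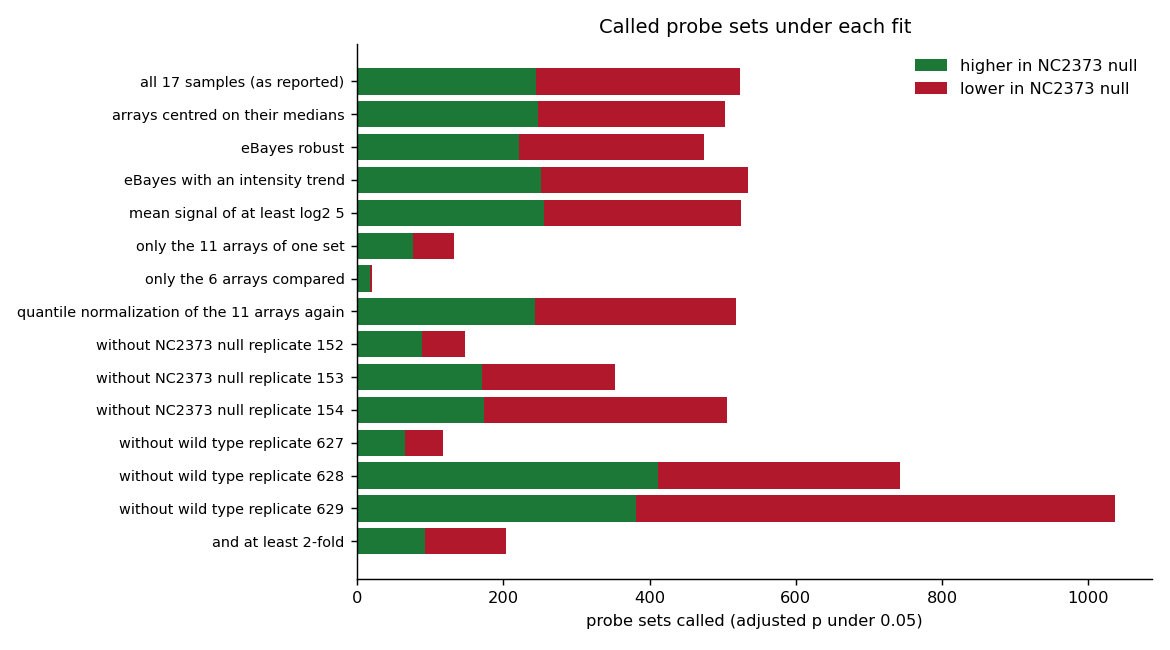
Number of probe sets called in NC2373 null minus wild type under each fit, as stacked bars of those higher (green) and lower (red). The reported fit calls 523, and the fits without 1 sample call between 118 and 1036.

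The other groups with the same signal distribution showed where each called probe set stood in plants outside the comparison. In 79 of the 245 higher probe sets (32.2%) and 86 of the 278 lower ones (30.9%), all 5 NC2373 samples, null and homozygous, lay beyond all 6 wild type and gs1;2 samples in the called direction. Over all probe sets this held for 1.03% and 1.56%. In 129 of the higher (52.7%) and 75 of the lower (27%), the 3 null samples lay beyond the other 8, against 1.91% and 1.44% of all probe sets. In 52 of the higher (21.2%) and 89 of the lower (32%), the wild type samples lay beyond the other 8, against 0.906% and 1.24% of all probe sets for the same sides. The called direction already separates most null samples from wild type, so these shares describe the called probe sets and carry no test.

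The contrast NC2373 gs1;1 minus gs1;2 takes its means from none of these 6 arrays, although it also contrasts both mutations. It came from the same fit, so its SE and adjusted p draw on the spread within those 6 arrays too. It called 3672 probe sets higher (6.41%) and 3068 lower (5.36%), and 3209 in all without NC2373 gs1;1 117 or 3742 without NC2373 gs1;1 118. Of the 245 probe sets higher in the null, 78 (31.8%) were also higher there and 15 (6.12%) were lower. Of the 278 lower in the null, 64 (23%) were also lower there and 36 (12.9%) were higher. As shares of the larger lists, the 78 were 2.12% of the probe sets higher in gs1;1 and the 64 were 2.09% of those lower. Probe sets called in the null also had a median level of 7.18 over the 6 samples, against 5.39 for all probe sets. With a shared spread estimate the calls of the contrasts are not independent, so these overlaps describe the lists and carry no test.

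Genes of the circadian clock included the named gene with the smallest adjusted p. The plant clock is a loop in which morning-expressed MYB repressors such as LHY and evening-expressed genes such as TOC1 and LUX repress each other. OsLHY (LOC4344703), the rice LHY, stood at 9.17, 9.42 and 9.41 in NC2373 null and at 8.33, 8.36 and 8.24 in wild type. It rose by 1.02 (SE 0.0822, adjusted p = 5.67e-05), and the call held without any 1 of the 6 samples, with the 11 arrays (adjusted p = 0.0017) and with the 6 arrays (adjusted p = 0.0436). The groups were far apart, and both NC2373 gs1;1 samples (10.53 and 10.50) lay higher still, while gs1;2 stood at 8.03 ± 0.06 (SD, n = 3). A second probe set of the gene, at 3.99 in the null and 4.14 in wild type, was not called (-0.15, adjusted p = 0.7085).

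OsPCL1 (LOC4326391), related to the evening-complex gene LUX of Arabidopsis, went the other way. It was at 8.75, 8.47 and 7.79 in the null and at 9.72, 9.85 and 9.73 in wild type, and fell by 1.43 (SE 0.197, adjusted p = 0.0053), with an adjusted p of 0.1353 in the 6 arrays alone. The 2 NC2373 gs1;1 samples were lower again at 6.94 and 6.70, and gs1;2 was at 10.26 ± 0.24 (SD, n = 3). OsPRR1 (LOC4330000), the rice relative of TOC1, stood at 9.69 ± 0.16 in the null and 10.22 ± 0.12 in wild type (SD, n = 3 each), and fell by 0.53 (SE 0.0999, adjusted p = 0.0226). That call ended without null 152, null 153 or wild type 627, where the highest adjusted p was 0.1324. The other 4 clock genes on the list, GI, OsPRR73, OsPRR37 and OsPRR95, differed by -0.14, -0.02, 0.08 and 0.07 and were not called. Of the 7 clock genes, then, 1 rose and 2 fell, against 0.787% and 0.748% of the 17905 genes measured with 1 probe set each. This list was put together after the values of OsLHY and OsPCL1 had been seen. The other lists below were chosen with earlier results of these data known, so their shares called describe the lists and carry no test. Lists hold only genes matched by name, and 2455 of the 17905 genes had a name, so a list can be a part of its family.

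OsSAPK9, OsBBD1 and HSFC1B were lower in the null, and the homozygotes of the line lay on the same side of wild type and gs1;2. OsSAPK9 (LOC4352660), an SnRK2-type protein kinase of osmotic stress and abscisic acid signalling, stood at 7.97, 8.43 and 8.62 in NC2373 null and at 10.04, 9.64 and 10.06 in wild type. It fell by 1.57 (SE 0.148, adjusted p = 0.000358) and kept its call without any 1 sample and with the 11 arrays (adjusted p = 0.0075), but not with the 6 arrays (adjusted p = 0.082). NC2373 gs1;1 was at 7.84 ± 0.06 (SD, n = 2) and gs1;2 at 9.97 ± 0.11 (SD, n = 3), so the 5 NC2373 samples lay below the other 6. Its probe set is of a type that may bind transcripts of several similar genes.

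OsBBD1 (LOC4326932), a bifunctional nuclease, was at 6.66, 7.66 and 8.19 in the null and 9.64, 9.34 and 9.88 in wild type. It fell by 2.12 (SE 0.362, adjusted p = 0.0135), and the call ended without null 152 or wild type 627, where the highest adjusted p was 0.0666. NC2373 gs1;1 stood at 7.33 ± 0.75 (SD, n = 2), against 9.64 ± 0.18 (SD, n = 3) in gs1;2. The heat shock factor HSFC1B (LOC4324158) was at 7.75 ± 0.32 in the null, 8.78 ± 0.09 in wild type and 8.89 ± 0.27 in gs1;2 (SD, n = 3 each), and fell by 1.03 (SE 0.185, adjusted p = 0.0173). Without null 152 or wild type 627 its adjusted p was at most 0.0859 and the call ended. OsHsp16.0 was the other call among 47 heat shock genes (4.26%, against 0.787% of all genes called higher and 0.748% lower), higher by 0.48 (adjusted p = 0.0486), and it lost its call in each of the 6 fits without 1 sample.

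**Figure D3:**
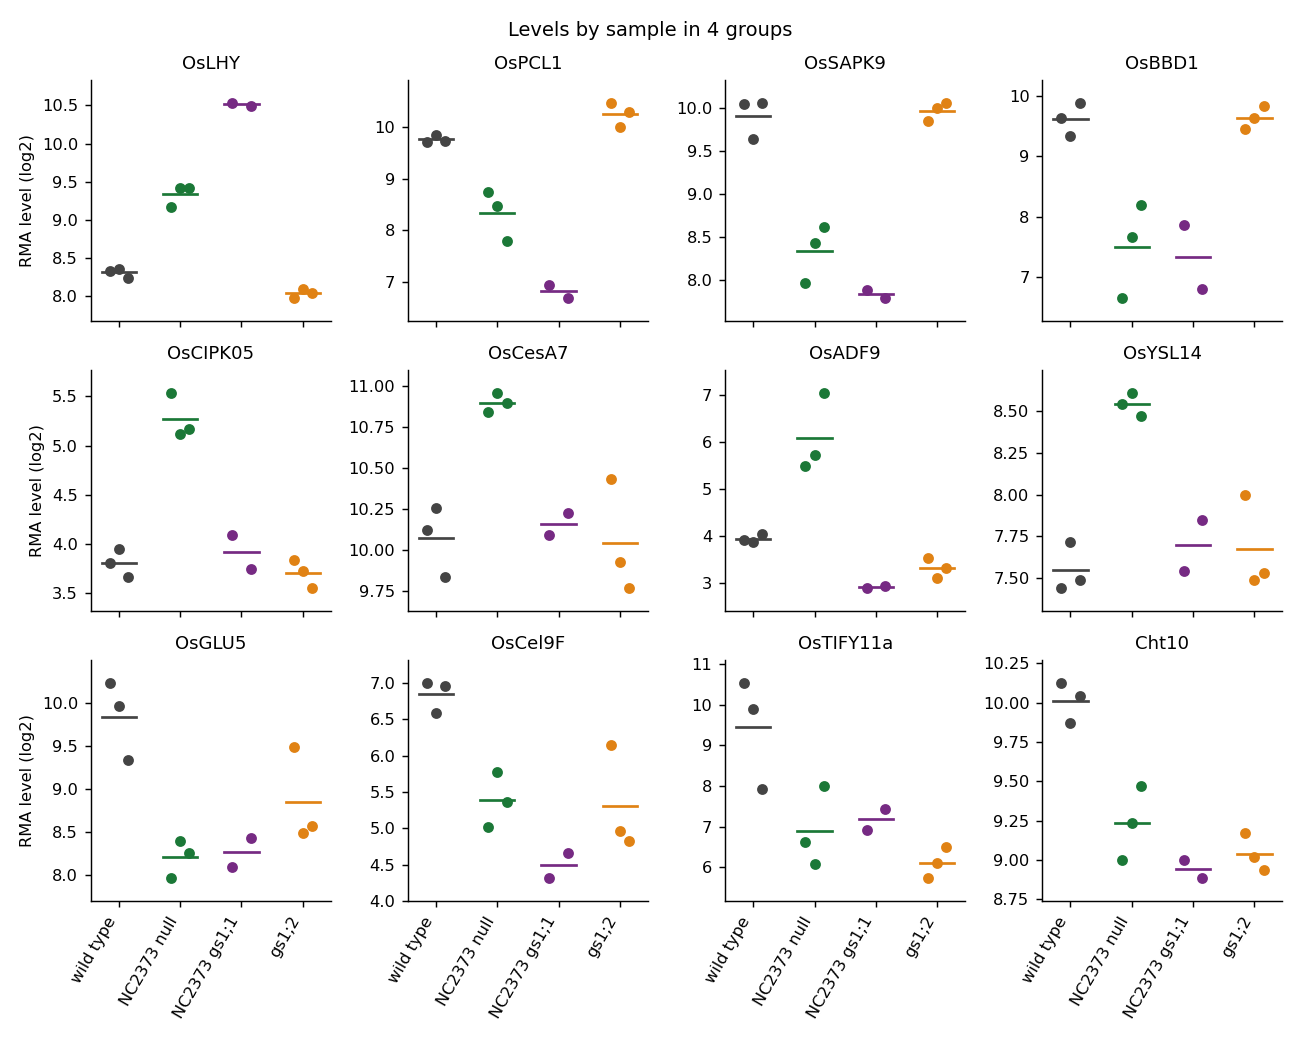
RMA level (log2, vertical axis, with its own range in each panel) of 12 genes in each sample of wild type, NC2373 null, NC2373 gs1;1 and gs1;2; points are samples and bars group means. In the top row both NC2373 groups lie apart from wild type and gs1;2, in the middle row the null samples lie apart from the rest, and in the bottom row wild type has the highest mean.

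Some genes of green tissue rose in the null, and their levels in NC2373 gs1;1 were higher again. Roots hold few chloroplasts, but light-harvesting and Rubisco genes are transcribed at a low level in roots that receive light. Of 11 photosynthesis genes, 3 rose and none fell (27.3%, against 0.787% of all genes called higher), with a median difference of 1.04 against -0.0060 over all genes. At an unadjusted p under 0.05, 8 of the 11 were higher, against 9.18% of all genes. The 3 called were RBCS-C, OsPSAG and RCABP89.

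RBCS-C (LOC4351966), a gene of the small subunit of Rubisco, stood at 10.19, 10.15 and 10.77 in NC2373 null and at 8.41, 8.07 and 8.84 in wild type, a rise of 1.93 (SE 0.397, adjusted p = 0.034). The groups did not overlap. NC2373 gs1;1 was at 12.52 ± 0.59 (SD, n = 2) and gs1;2 at 7.71 ± 0.17 (SD, n = 3). The other 3 probe sets of this gene differed by 0.18, 1.03 and -0.08 and were not called, and Rubisco small subunit genes are similar enough to share signal.

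RCABP89 (LOC4333359), a chlorophyll a/b-binding protein of the light-harvesting complex, was at 9.91, 10.35 and 10.65 in the null and 7.88, 7.72 and 9.59 in wild type, a rise of 1.91 (SE 0.408, adjusted p = 0.0423). OsPSAG (LOC4337812), a photosystem I subunit, was at 7.32 ± 0.25 in the null and 6.37 ± 0.40 in wild type (SD, n = 3 each), a rise of 0.95 (SE 0.191, adjusted p = 0.0316); its other probe set differed by -0.05 and was not called. In both genes wild type 629 was the highest of its group. RBCS-C and RCABP89 kept their calls only without wild type 629 (adjusted p up to 0.1395 and 0.2137 in the other fits), and OsPSAG only without wild type 629 or null 152 (up to 0.1607). The largest difference on the list, 2.27 in the light-harvesting gene RCABP69, was not called (adjusted p = 0.057).

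Of 15 chlorophyll synthesis genes, 2 rose and none fell (13.3%, against 0.787% of all genes called higher), with a median difference of 0.30. CAO (LOC4349433), which converts chlorophyll a to chlorophyll b, stood at 8.48, 8.63 and 8.66 in the null and at 7.49, 7.18 and 7.85 in wild type. It rose by 1.08 (SE 0.159, adjusted p = 0.0068), a call that held without any 1 sample but not in the 6 arrays alone (adjusted p = 0.1297), with NC2373 gs1;1 at 9.88 ± 0.04 (SD, n = 2) and gs1;2 at 8.01 ± 0.09 (SD, n = 3). CHLH (LOC4332690), the large subunit of magnesium chelatase, was at 8.42, 8.85 and 9.05 against 6.59, 6.69 and 7.95, a rise of 1.70 (SE 0.348, adjusted p = 0.0337). Its other probe set, at a lower signal, differed by 0.16 and was not called. The CHLH call remained only without wild type 629, with an adjusted p up to 0.1815 otherwise.

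Wild type 629 lay toward the null for these lists. The mean level of the 11 photosynthesis genes was 7.56, 7.34 and 8.49 in wild type 627, 628 and 629, and 8.50, 8.91 and 9.21 in NC2373 null 152, 153 and 154. Their summed signal on the linear scale ran from 7945 to 15470 in wild type, 12986 to 22490 in the null, 40438 to 48355 in NC2373 gs1;1 and 7886 to 10723 in gs1;2. All 8 other photosynthesis genes were not called, LIR1 and RBCS1 differed by -0.17 and -0.09, and RBCS1, at 2.27 to 2.66, was at the bottom of the signal range. Without wild type 629, 7 photosynthesis and 5 chlorophyll genes were called higher. Without null 153, null 154, wild type 627 or wild type 628 no photosynthesis gene was, and without null 152 there was 1. One chlorophyll gene, CAO, was called in each of those 5 fits. In ND8037 null, on arrays with another signal distribution, the photosynthesis genes had a mean level of 8.61, with 7.80 in wild type. The chlorophyll genes were at 7.15 there and 7.18 in wild type. ND8037 gs1;1 was at 9.67 and 7.82 in the same order. Of the called genes, RBCS-C was at 9.52, RCABP89 at 10.85, OsPSAG at 7.47, CHLH at 8.53 and CAO at 8.32 in ND8037 null. Levels compare only within a set, so ND8037 null against wild type was not tested. A share of shoot or green tissue in the samples was not tested.

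**Figure D4:**
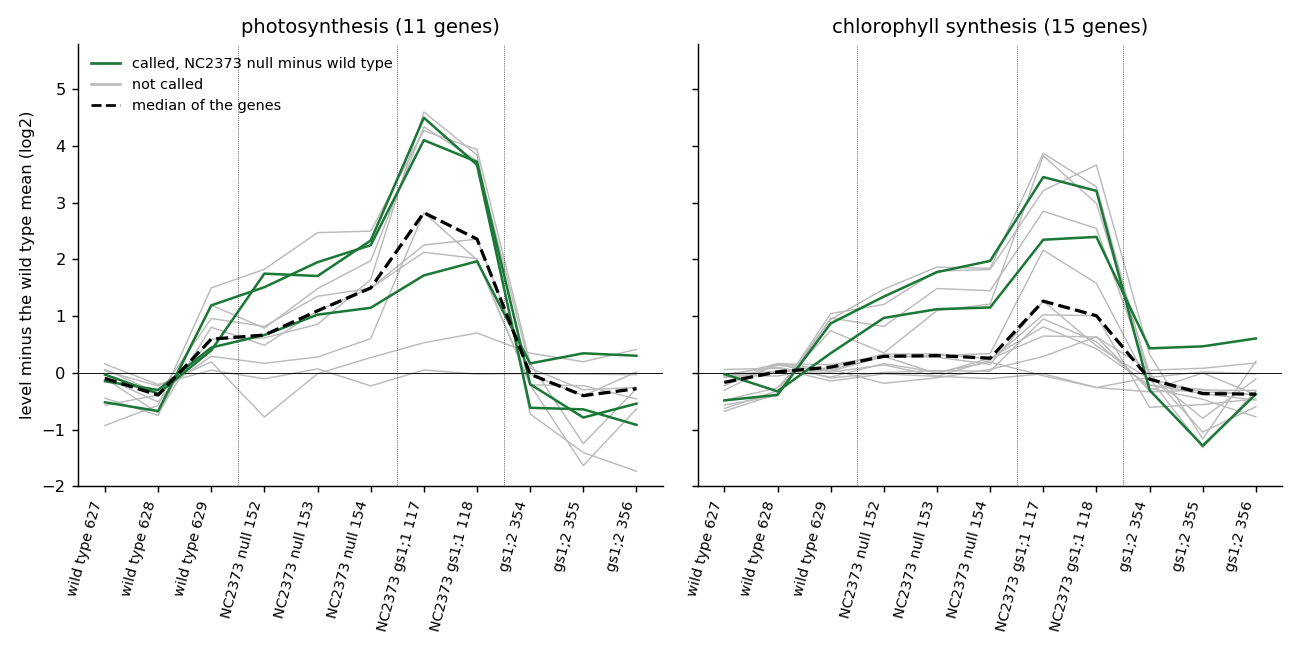
Level minus the wild type mean (log2, vertical axis) in each of the 11 samples, with 1 line per gene, for 11 photosynthesis and 15 chlorophyll synthesis genes. Lines only join values of one gene, green lines are called genes and the dashed line is the median of the genes; wild type 629 lies nearer the null samples than the other wild type samples do.

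In 3 secondary wall genes and 3 actin-depolymerizing factor genes that rose, the null samples lay above the other 8. OsCesA4, OsCesA7 and OsCesA9 encode the cellulose synthase subunits of the secondary wall, which thickens cells such as those of the xylem. OsCesA7 (LOC4348853) was at 10.85, 10.96 and 10.90 in NC2373 null and at 10.13, 10.26 and 9.84 in wild type, a rise of 0.83 (SE 0.142, adjusted p = 0.0136). NC2373 gs1;1 was back at 10.16 ± 0.10 (SD, n = 2), 0.74 below the null (adjusted p = 0.0117), and gs1;2 was at 10.05 ± 0.35 (SD, n = 3).

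OsCesA9 (LOC4347093) rose by 1.02 (SE 0.19, adjusted p = 0.0225) and OsCesA4 (LOC4324625) by 0.75 (SE 0.164, adjusted p = 0.0465), with a second OsCesA4 probe set at 0.78 (adjusted p = 0.0226). Their null samples also lay above the other 8, but NC2373 gs1;1 minus null was not called for either (adjusted p = 0.0754 and 0.0614). These were the 3 called of 12 secondary wall genes (25%, against 0.787% of all genes called higher), all higher, and the list's median difference was 0.28. At an unadjusted p under 0.05, 6 were higher and 2 lower, against 9.18% and 9.98% of all genes. The lowest difference was -0.84. The number called was 1 without null 152, null 153 or wild type 627, and 0 with the 11 arrays alone. The OsCesA7 call ended without wild type 627 (adjusted p = 0.0589), that of OsCesA9 without null 152 or null 153 (up to 0.0757), and that of OsCesA4 remained only without wild type 628 (up to 0.158 otherwise). BC1 (0.75, adjusted p = 0.204) and KIN4A (0.36, adjusted p = 0.095), 2 genes needed for normal stem strength in rice, were not called, and the xylan synthesis gene OsIRX9 differed by -0.53 (adjusted p = 0.194).

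Actin-depolymerizing factors sever and disassemble actin filaments. Of 9 on the list, 3 were called higher and none lower (33.3%, against 0.787% of all genes called higher), and the median difference was 0.36. At an unadjusted p under 0.05, 4 were higher and 1 lower, against 9.18% and 9.98% of all genes. The lowest difference was -0.47. The number called was 1 after the signal filter, which leaves out OsADF9 and OsADF6. OsADF9 (LOC4343240) stood at 5.50, 5.72 and 7.04 in the null and at 3.92, 3.87 and 4.04 in wild type, a rise of 2.15 (SE 0.306, adjusted p = 0.0061), with NC2373 gs1;1 and gs1;2 below wild type at 2.92 and 3.32. OsADF11 (LOC4352848) was at 7.28, 7.34 and 7.40 against 6.40, 6.28 and 6.36 and rose by 1.00 (SE 0.18, adjusted p = 0.0184). OsADF6 (LOC4336623) rose by 1.41 (SE 0.29, adjusted p = 0.0343). For all 3 the null samples lay above the other 8, and the homozygotes of the line were below the null (adjusted p = 0.000309 for OsADF9, 0.009 for OsADF11 and 0.0053 for OsADF6). The ND8037 arrays have another signal distribution. There OsADF9 was at 4.60 ± 0.37 in the null and 2.95 ± 0.36 in gs1;1 (SD, n = 3 each). OsADF6 was at 4.83 ± 0.34 and 3.76 ± 0.21 in the same order.

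The members with the highest signal, OsADF2, OsADF4 and OsADF5, differed by -0.01 to 0.05 and were not called. The summed linear signal of the 9 was 18655 to 19601 in the null and 17979 to 18493 in wild type. OsADF9 kept its call without any 1 sample but not in the 6 arrays alone (adjusted p = 0.1619). OsADF6 and OsADF11 lost theirs without null 152 or wild type 627, with adjusted p up to 0.1733 and 0.0729.

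Of 87 calcium signalling genes 3 rose, 2 of them protein kinases whose null samples lay above the other 8. OsCIPK05 (LOC4327093), one of the kinases that calcineurin B-like calcium sensors activate, was at 5.53, 5.12 and 5.17 in NC2373 null and at 3.81, 3.95 and 3.67 in wild type. It rose by 1.47 (SE 0.217, adjusted p = 0.0072), kept its call without any 1 sample and with the 6 arrays (adjusted p = 0.0396), and stood at 3.92 ± 0.24 (SD, n = 2) in NC2373 gs1;1, below the null (adjusted p = 0.0048). OsCIPK31 (LOC4332665), of the same kinase family, was at 7.66, 7.57 and 7.65 against 6.74, 6.83 and 6.21 and rose by 1.03 (SE 0.175, adjusted p = 0.0134). Its adjusted p was 0.0554 without null 152. A second OsCIPK31 probe set differed by 0.51 and was not called (adjusted p = 0.2691). OsCAM61, a calmodulin-like protein, rose by 0.83 (SE 0.177, adjusted p = 0.0426) and was as high in NC2373 gs1;1, at 8.26 ± 0.15 (SD, n = 2); its call ended in 5 of the 6 fits without 1 sample, that without wild type 629 being the exception. These were 3.45% of the list, against 0.787% of all genes called higher, and its median difference was -0.04. At an unadjusted p under 0.05, 13 of its genes were higher and 14 lower, against 9.18% and 9.98% of all genes.

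GA20OX2 (LOC4325003), the gibberellin 20-oxidase known as the semidwarf gene SD1, stood at 8.33, 8.24 and 7.81 in the null and at 6.67, 6.71 and 7.41 in wild type. It rose by 1.20 (SE 0.223, adjusted p = 0.0217), the 1 call among 10 gibberellin genes (10%, against 0.787% of all genes called higher), while NC2373 gs1;1 was at 6.71 ± 0.05 (SD, n = 2), below the null (adjusted p = 0.0045). The call ended without null 152, null 153 or wild type 627, with an adjusted p up to 0.1256.

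Among metal homeostasis genes, 1 rose and 2 fell. OsYSL14 (LOC9267947), a member of the yellow stripe-like family of metal transporters, was at 8.54, 8.61 and 8.47 in the null and at 7.44, 7.72 and 7.49 in wild type, and rose by 0.99 (SE 0.141, adjusted p = 0.0061). The call held without any 1 sample but not in the 6 arrays alone (adjusted p = 0.0514), and NC2373 gs1;1 was below the null (adjusted p = 0.0058). OsNAAT1 (LOC9267778), the aminotransferase that makes the precursor of the iron-binding mugineic acids, was at 8.90, 9.41 and 9.48 against 11.08, 10.54 and 10.83 and fell by 1.56 (SE 0.314, adjusted p = 0.0316). The call ended without null 152, null 153 or wild type 627, with an adjusted p up to 0.161.

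OsYSL14 and OsNAAT1 were the 2 calls among 33 iron acquisition genes (6.06%, against 0.787% of all genes called higher and 0.748% lower), whose median difference was 0.03. At an unadjusted p under 0.05, 4 were higher and 9 lower, against 9.18% and 9.98% of all genes. OsNAS1 and OsNAS2, which make the nicotianamine that OsNAAT1 uses, differed by -2.64 (SE 0.9, adjusted p = 0.202) and -2.21 (SE 0.616, adjusted p = 0.112). OsNAS1 varied widely among the null samples, at 8.47, 6.60 and 6.23, against 9.46, 9.50 and 10.26 in wild type. The groups did not overlap, yet neither gene was called. OsCOPT2 (LOC4338846), a copper transporter, was at 5.43, 5.75 and 5.67 in the null and 8.09, 7.38 and 6.38 in wild type and fell by 1.66 (SE 0.326, adjusted p = 0.0271). Without wild type 629 its adjusted p was 0.001, and without any of the other 5 samples the call ended, with values up to 0.1242.

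Of the jasmonate genes on the list, 4 fell, and the calls rested on single samples. Jasmonate is a wound and defence hormone, and the JAZ repressors, encoded by TIFY genes, are induced by it and hold its response in check. OsTIFY11a (LOC4331832) stood at 10.52, 9.89 and 7.94 in wild type 627, 628 and 629, and at 6.63, 6.09 and 8.01 in NC2373 null 152, 153 and 154. The groups overlapped, since null 154 lay above wild type 629, and the fall of 2.54 (SE 0.56, adjusted p = 0.0469) was close to the threshold. OsTIFY11e (LOC4348531) had the same order, at 11.23, 10.58 and 8.84 in wild type and 7.66, 6.71 and 8.97 in the null, a fall of 2.44 (SE 0.543, adjusted p = 0.0493).

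AOS1 (LOC4334233), an allene oxide synthase of jasmonate synthesis, was at 9.35, 9.04 and 9.04 in wild type and 7.98, 7.69 and 8.80 in the null, a fall of 0.98 (SE 0.216, adjusted p = 0.0469). OsTIFY10c (LOC4347164) fell by 0.93 (SE 0.174, adjusted p = 0.0226). These were 4 of 38 jasmonate genes (10.5%, against 0.748% of all genes called lower), none rose, and the median difference of the list was -0.11. At an unadjusted p under 0.05, 13 were lower, against 9.98% of all genes. OsbHLH148, a transcription factor gene of the jasmonate response, had a difference of -1.81 that was not called (adjusted p = 0.062). In the other groups OsTIFY11a was at 7.19 ± 0.37 (SD, n = 2) in NC2373 gs1;1 and 6.12 ± 0.37 (SD, n = 3) in gs1;2, both below the wild type mean of 9.45 ± 1.35 (SD, n = 3).

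No jasmonate gene was called without null 152, null 153 or wild type 627, nor with the 11 or the 6 arrays alone. There was 1 without wild type 628, 5 without wild type 629 and 8 without null 154. The 4 calls had adjusted p up to 0.2466 where they ended. The mean level of the list was 9.32, 9.28 and 9.24 in wild type and 8.91, 8.84 and 9.20 in the null, in the order of samples given above, so null 154 lay nearest to wild type.

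In the 3 unnamed genes with the largest falls, wild type 629 and null 154 were again the nearest samples of the 2 groups. LOC4335417, a gene with no name in the annotation used here, stood at 11.61, 11.10 and 9.24 in wild type and at 5.95, 5.41 and 8.38 in NC2373 null, a fall of 4.07 (SE 0.679, adjusted p = 0.0124), with gs1;2 at 6.51 ± 0.85 (SD, n = 3). LOC4347266 fell by 3.45 (SE 0.665, adjusted p = 0.0255) and LOC4325751 by 2.68 (SE 0.467, adjusted p = 0.0147). For LOC4335417 and LOC4347266 the wild type samples lay above the other 8 of the 11 arrays. For LOC4325751 they did not, since NC2373 gs1;1 118 was at 7.77 and wild type 629 at 7.55. In all 3 wild type 629 was the lowest of its group and null 154 the highest. That order was found in 73 of the 278 lower probe sets (26.3%) and in 7.72% of all probe sets. The mirrored order was found in 17 of the 245 higher ones (6.94%), and its share over all probe sets was not counted. The calls of all 3 genes ended without null 152 or wild type 627, with an adjusted p up to 0.137, and that of LOC4347266 also without null 153 or wild type 628 and that of LOC4325751 also without null 153.

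One phytoalexin gene and 1 pathogenesis-related gene fell. OsCPS4 (LOC4335090), a diterpene cyclase of phytoalexin synthesis, was at 6.81, 7.00 and 6.59 in the null and 8.91, 9.14 and 8.07 in wild type and fell by 1.91 (SE 0.408, adjusted p = 0.0423). Its mean was 8.77 in NC2373 gs1;1 and 8.26 in gs1;2. On the ND8037 arrays, with another signal distribution, it was 6.35 in the null and 8.73 in gs1;1. It was the 1 call among 20 phytoalexin genes (5%, against 0.748% of all genes called lower), and it remained only without wild type 629, with an adjusted p up to 0.1829 when another sample was left out. The chitinase gene Cht10 (LOC4325148) was at 9.00, 9.24 and 9.47 against 10.12, 9.87 and 10.04 and fell by 0.78 (SE 0.152, adjusted p = 0.0274), the 1 call among 11 pathogenesis-related genes (9.09%, against 0.748% of all genes). The median difference of that list was 0.17, and 8 of its 11 genes had a positive difference. NC2373 gs1;1 (8.94 ± 0.08, SD, n = 2) and gs1;2 (9.04 ± 0.12, SD, n = 3) stood as low as the null, so the wild type samples lay above the other 8. The Cht10 call ended without null 152, null 153 or wild type 627, with an adjusted p up to 0.1396. No WRKY gene of the 6 matched by name was called, and their median difference was -0.48.

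Further named genes fell without sharing a list. OsMYB2 (LOC4332651), a MYB transcription factor of stress responses, was at 7.21, 7.66 and 8.06 in the null and 10.14, 9.35 and 8.93 in wild type and fell by 1.83 (SE 0.282, adjusted p = 0.0086), a call that held without any 1 sample but not in the 6 arrays alone (adjusted p = 0.1782). OsCel9F (LOC4328141), an endoglucanase of glycosyl hydrolase family 9, was at 5.02, 5.77 and 5.36 against 6.99, 6.59 and 6.96 and fell by 1.47 (SE 0.304, adjusted p = 0.0356). OsSABATH4 (LOC4337315), of a methyltransferase family, fell by 1.34 (SE 0.215, adjusted p = 0.0104). For these 3 genes the wild type samples lay above the other 8. For OsMYB2 the null samples also lay below the other 8.

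OsGLU5 (LOC4324643) was at 7.96, 8.39 and 8.26 against 10.23, 9.96 and 9.33 and fell by 1.63 (SE 0.284, adjusted p = 0.0147). PCF8 (LOC4352799), a TCP transcription factor, fell by 1.22 (SE 0.245, adjusted p = 0.0312), with a second probe set at -0.91 (adjusted p = 0.0193). RAG2 (LOC4342723), a seed albumin gene, fell by 1.26 (SE 0.277, adjusted p = 0.0469) on a probe set that may bind similar genes, while its other 3 probe sets differed by -0.38 to -0.02 and were not called. Of these genes OsMYB2 alone kept its call in every fit without 1 sample. The other 5 lost it without null 152 or wild type 627, OsCel9F also without null 154 or wild type 629, PCF8 also without null 153 or null 154, and RAG2 also without null 153, null 154 or wild type 629, with an adjusted p up to 0.198.

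ARD4 (LOC4348647), an acireductone dioxygenase of the methionine salvage cycle, rose by 1.11 (SE 0.2, adjusted p = 0.0178), and PDX12 (LOC4347937), which belongs to a family of vitamin B6 synthesis, by 1.09 (SE 0.235, adjusted p = 0.0444). PDX12 was at 4.08, 4.38 and 4.60 in the null, 3.26, 3.12 and 3.42 in wild type and 7.49 ± 0.30 (SD, n = 2) in NC2373 gs1;1. In both genes all 5 NC2373 samples lay above the wild type and gs1;2 samples. BGLU12 (LOC4336145), a beta-glucosidase, rose by 1.03 (SE 0.221, adjusted p = 0.0424), on one of its 2 probe sets; the other, with a higher signal, differed by 0.62 (adjusted p = 0.051). OsRR2 (LOC4329677), a response regulator, was the 1 call among 31 cytokinin genes (3.23%, against 0.787% of all genes), higher by 0.65 (SE 0.138, adjusted p = 0.0409), and OsDREB2D (LOC4339084) the 1 among 27 cold and dehydration genes (3.7%, against 0.748%), lower by 0.62 (SE 0.136, adjusted p = 0.0464) at the low levels of 2.55 and 3.17 in the null and wild type. The cytokinin list had a median difference of -0.10, and 10 of its 31 genes had a positive difference. At an unadjusted p under 0.05, 8 cytokinin genes were lower and 2 higher, and 11 cold and dehydration genes were lower and 3 higher. Of all genes, 9.98% were lower and 9.18% higher at that threshold. A second OsDREB2D probe set differed by -0.11 and was not called (adjusted p = 0.6357). The ARD4 call ended without null 153, null 154 or wild type 627 (adjusted p up to 0.1069). Those of PDX12, BGLU12 and OsDREB2D remained only without wild type 629 and that of OsRR2 only without null 154, with an adjusted p up to 0.1884 elsewhere.

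**Figure D5:**
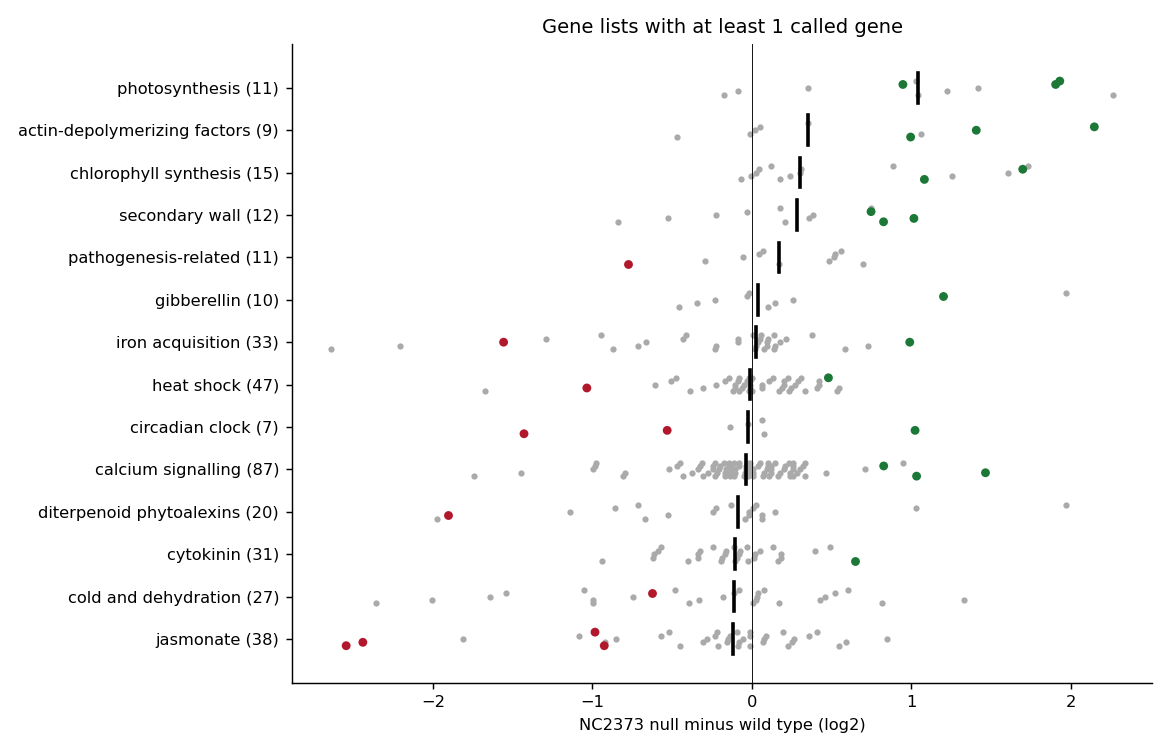
NC2373 null minus wild type (log2, horizontal axis) of every measured gene of the lists with at least 1 called gene, with the number of genes in brackets. Large green points were called higher, large red points called lower, small grey points were not called, and black bars are the list medians, which run from -0.11 for jasmonate to 1.04 for photosynthesis.

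Nitrogen genes were not called in this comparison. Of 9 genes of glutamine synthetase, glutamate synthase and glutamate dehydrogenase none was called, and the median difference was 0.11. At an unadjusted p under 0.05, 3 were higher and 1 lower, against 9.18% and 9.98% of all genes. Of the 9 differences, 7 were positive. The largest was 0.89 in OsGS2, the plastid glutamine synthetase, which was at 9.27, 9.20 and 9.71 in the null and 8.54, 8.25 and 8.72 in wild type (SE 0.26, adjusted p = 0.128). Among 8 ammonium transporter genes OsAMT1;1, a high-affinity transporter of roots, differed by 0.46 (SE 0.116, adjusted p = 0.078) and OsAMT2;3 by -0.79 (SE 0.204, adjusted p = 0.085), without overlap of the groups and without a call. In all, 19 of the 32 lists, which held 782 genes, had no call when each gene was counted by its brightest probe set; through other probe sets, BGLU12 (higher) and BGLU32 (lower by 0.60, outside the rule for named genes) among the beta-glucosidases and RAG2 among the seed storage genes were called. Among these were auxin with 67 genes and a median difference of -0.0031, replication and cell cycle with 69 and 0.0073, sucrose breakdown and glycolysis with 38 and 0.09, and the cytosolic ribosome with 25 and 0.07. A call missed with 3 samples a group does not show that these genes were equal.

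The labelled tissue was checked on 13 root genes. The silicon transporter genes OsNIP2;1 (Lsi1) and Lsi2, which serve silicon uptake in roots, had levels of 12.75 to 13.24 and 10.78 to 11.25 in NC2373 null and of 13.31 to 13.62 and 11.24 to 12.01 in wild type. No root gene was called. OsNIP2;1 and Lsi2 differed by -0.47 (adjusted p = 0.0817) and -0.63 (adjusted p = 0.1974), and the summed linear signal of the list was 14806 to 18263 in the null and 18025 to 23064 in wild type. Of 10 seed storage genes none was called by its brightest probe set, RAG2 being called through another, and their mean levels were 5.59 to 5.69 in the null and 5.65 to 5.72 in wild type.

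The largest rises were in probe sets without a named gene. OsAffx.22999.1.S1_at, with no gene in the annotation used here, stood at 12.60, 12.79 and 12.61 in NC2373 null and at 5.10, 5.19 and 5.13 in wild type, a difference of 7.53 (SE 0.107, adjusted p = 2.26e-15). It was also high in NC2373 gs1;1 (12.83 ± 0.37, SD, n = 2) and gs1;2 (13.12 ± 0.05, SD, n = 3), so the 3 wild type samples were the low ones. On the ND8037 arrays, which have another signal distribution, it ranged from 12.60 to 12.74.

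Os.39806.1.S1_at, also without a gene, was at 9.02, 8.29 and 8.09 in the null and 4.36, 3.81 and 4.77 in wild type, a difference of 4.16 (SE 0.78, adjusted p = 0.0226), with 8.51 ± 0.54 (SD, n = 2) in NC2373 gs1;1 and 9.25 ± 0.42 (SD, n = 3) in gs1;2. Here the ND8037 null samples split into 9.12, 4.91 and 4.99, and so did not share a level. Its call ended without null 152, null 153 or wild type 627, with an adjusted p up to 0.0934, while that of OsAffx.22999.1.S1_at held in every fit. Both were singled out after their values were seen.

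Among genes without a name, LOC4330830 was at 4.34, 5.67 and 6.01 in the null and 2.61, 2.77 and 2.94 in wild type, a rise of 2.57 (SE 0.356, adjusted p = 0.0053), with 2.70 and 2.72 in NC2373 gs1;1 and gs1;2. The levels in these 2 groups and in wild type were among the lowest signals, so the size may be a lower bound. On the ND8037 arrays, with another signal distribution, LOC4330830 was at 4.40, 5.18 and 3.79 in ND8037 null. ND8037 gs1;1 was at 2.84 ± 0.20 (SD, n = 3), so a higher level in null plants was not particular to NC2373. Its 2 other probe sets differed by 0.01 and 0.26 and were not called. LOC4339708 rose by 2.41 (SE 0.316, adjusted p = 0.0037) and LOC4348069 by 2.36 (SE 0.46, adjusted p = 0.0265). The calls of LOC4330830 and LOC4339708 held without any 1 sample but not in the 6 arrays alone (adjusted p = 0.1297 and 0.1045), and that of LOC4348069 ended without null 152, null 153 or wild type 627, with an adjusted p up to 0.1338.

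The 275 called genes were placed in the gene order of the RefSeq assembly ASM3414082v1. Of these, 4 had a next measured gene that was called in the same direction, and no run exceeded 2 genes; 0.787% of all genes were called higher and 0.748% lower. One pair held OsPRR1 and the unnamed LOC4330001, which fell by 2.56 (SE 0.389, adjusted p = 0.0081), from 8.68, 8.02 and 7.02 in wild type to 4.83, 5.08 and 6.12 in the null. Another held OsLHY and LOC4344701, which rose by 0.77 (adjusted p = 0.0265).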

How the data were processed

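The deposited table holds log2 values per probe set and array, made by the authors with RMA, per the submitters' processing notes; for its version and settings, the sources used here give nothing. RMA sets arrays to a common distribution, so levels compare only within a set. That the 11 and 6 arrays form 2 sets was read from their distributions. RNA was isolated with an RNeasy kit and labelled with biotin by 3' IVT, per the labels. Of 57381 rows, 123 Affymetrix controls were left out. All 17 arrays entered 1 limma 3.58.1 fit (R 4.3.3; mean per group, 11 residual and 3.83 prior degrees of freedom), with two-sided Benjamini-Hochberg adjustment over 57258 probe sets. The median SE was 0.11, and 3 arrays a group limit the precision. Plots used Python 3.11.15 and matplotlib 3.10.9.

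Names came from the platform annotation joined to RefSeq, with 22436 probe sets of 1 gene; 95 had several and were not named. In the lists each gene counts once, through its brightest probe set over the 11 arrays; the clock list was added after values were seen. Named were the 3 GS1 genes, the 12 largest called rises and falls with a gene name and no overlap, up to 6 called genes of each list, the 3 largest called rises and falls of any gene, and runs of neighbouring called genes (none of 3 or more). The members and lists were chosen with earlier results of these data known. Values of the gs1;1, gs1;2 and null contrasts share arrays and are given side by side. Alternatives were other arrays, normalizations, filters, moderation settings, a fold threshold and leaving out each sample.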

Additional observations from a re-analysis of the deposited data

How the results depend on the processing

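The 523 probe sets called in NC2373 null minus wild type (245 higher, 278 lower) became 133 (77 and 56) when the 11 arrays of one set were fitted alone and 20 (17 and 3) with the 6 arrays alone. These fits have fewer residual degrees of freedom and take the spread from fewer groups. Where the null or wild type samples varied more than the other groups, the SE of the 17-array fit understates the spread of the compared groups. With at least 2-fold asked as well, the 523 became 203 (93 and 110). Leaving out 1 of the 6 samples gave 118 to 1036, with 65 to 411 higher and 53 to 654 lower. The lowest was without wild type 627 and the highest in all without wild type 629. A second quantile normalization, centring on array medians, a filter on signal and 2 other moderation settings kept the count within 1.5 times. NC2373 gs1;1 minus gs1;2 called 6740, and 3209 to 5593 without 1 of its samples, with 1846 to 3168 higher and 1363 to 2425 lower. The counts of 590 and 894 probe sets in which all 5 NC2373 samples lay beyond the 6 others moved by less than 1.5 times under the second normalization.

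Of 53 called probe sets named in the text, 53 remained under an intensity trend, 43 under robust moderation, 50 after centring, 42 of the 42 that pass the signal filter (11 do not), 23 with the 11 arrays and 6 with the 6 arrays, and 15 to 47 without 1 sample; none changed sign. At an unadjusted p under 0.05, 7304 probe sets (12.8%) passed. No paired analysis was possible because the groups share no replicate number in the labels. With 3 samples a group, of 1 line and 1 wild type seed source, small differences cannot be resolved and seed lot, growth position and line cannot be told apart.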
